A study of Mus musculus with 8 samples.

Results

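A group of 10 CC chemokine genes of mouse chromosome 11, Ccl2, Ccl3, Ccl4, Ccl5, Ccl6, Ccl7, Ccl8, Ccl9, Ccl11 and Ccl12, was followed in cheek skin injected with brain natriuretic peptide (BNP). The 10 were chosen by gene symbol, with earlier results of these data known, and were among the 18901 genes listed. Of the 11 CC chemokine genes listed on that chromosome, Ccl1 was not among them. The 4 TBX20fl/fl;K14-Cre mice carried floxed Tbx20 alleles and a Cre transgene under the keratin 14 promoter, which deletes exons 2 and 3 of Tbx20 in keratinocytes and leaves the gene intact in other cells of the skin. They are called knockout mice here. The 4 TBX20fl/fl controls carried the floxed alleles without Cre. Per the study's methods the mice were females aged 7 weeks and received 10 µg of recombinant BNP, and tissue was taken 5 h after a 30 min recording of behaviour. Each mouse gave 1 RNA-seq library, both groups had received BNP, and vehicle-injected skin was not analysed here. The comparison asks how the RNA of these chemokines differed between BNP-injected skin with and without Tbx20 in keratinocytes.

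CC chemokines are small secreted proteins in which the first cysteines of the mature chain are adjacent. They bind G protein-coupled receptors on leukocytes and direct the movement of these cells into tissue. Ccl2, Ccl7 and Ccl12 act through Ccr2 on monocytes, Ccl11 (eotaxin) acts through Ccr3 on eosinophils, mouse Ccl8 acts through Ccr8, and Ccl3, Ccl5, Ccl6 and Ccl9 act through Ccr1. Ccl4 is a close relative of Ccl3 that attracts monocytes and T cells. In skin they are made by macrophages, mast cells, fibroblasts, endothelial cells, keratinocytes and the recruited leukocytes themselves. In whole skin, fewer cells of a type and less RNA per cell cannot be told apart.

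The genes lay in 2 blocks on GRCm38. Ccl2, Ccl7, Ccl11, Ccl12 and Ccl8, all on the plus strand, occupied 81.2 kb at chr11:82035577-82116799. Ccl5, Ccl9, Ccl6 and Ccl3 on the minus strand and Ccl4 on the plus strand occupied 139 kb at chr11:83525778-83664683. The coding sequences of 9 genes below, read from the GENCODE transcripts of GRCm38, are shown because they carry the motif that defines the family. Each is a 30-base stretch from 5′ to 3′ with the codons of the adjacent cysteines in capitals. The stretch lay in exon 2 of 3 in 7 of these genes and in exon 3 of 4 in Ccl6 and Ccl9.
Ccl2, chr11:82036494-82036523, plus strand: gccccactcaccTGCTGCtactcattcacc
Ccl7, chr11:82046526-82046555, plus strand: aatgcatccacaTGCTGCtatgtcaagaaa
Ccl12, chr11:82102622-82102651, plus strand: accccagtcacgTGCTGTtataatgttgtt
Ccl8, chr11:82116044-82116073, plus strand: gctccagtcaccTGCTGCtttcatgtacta
Ccl11, chr11:82061684-82061713, plus strand: atcccaacttccTGCTGCtttatcatgacc
Ccl4, chr11:83663470-83663499, plus strand: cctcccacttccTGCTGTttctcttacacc
Ccl5, chr11:83529230-83529259, minus strand: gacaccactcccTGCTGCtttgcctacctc
Ccl6, chr11:83589374-83589403, minus strand: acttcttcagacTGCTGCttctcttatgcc
Ccl9, chr11:83575914-83575943, minus strand: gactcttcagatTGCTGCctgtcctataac
The codon pair reads TGCTGC in 7 of them, and TGCTGT in Ccl12 and Ccl4.

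In pairwise alignments of the whole coding sequences, with gaps counted as differences, the closest pairs were Ccl3 and Ccl4 with 66.7% identical bases, Ccl7 and Ccl11 with 66.3%, Ccl6 and Ccl9 with 64.6%, and Ccl8 and Ccl12 with 64.4%. The most distant pair was Ccl2 and Ccl5 with 38.1%. The order depends on the gaps, and over aligned bases alone Ccl6 and Ccl9 came first with 70.7% and Ccl5 and Ccl7 last with 57.5%. None of these pairs was alike enough to share a run of bases as long as a read. In 9 genes no 50-base stretch of any annotated transcript occurred in another gene, and in Ccl9 59 of 2996 stretches (1.97%) did, none of them in another of the 10 genes. The listed intervals of Ccl3 and Ccl4, which lie on opposite strands, overlapped by 755 bases. The strand setting of the counting was not given in the sources used here, so reads from that overlap cannot be assigned to either gene with certainty.

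Promoters of 5 of the genes, Ccl12, Ccl8, Ccl9, Ccl6 and Ccl3, were held in the RefSeq promoter table (GRCm38.p6). A TATAAA run, searched on both strands in the 250 bases before the start, was present in 3 of these 5 and in 12.4% of all 32851 promoters. The stretches below, the last 100 bases before the start, show that run in capitals.
Ccl12, chr11:82101745-82101844, plus strand: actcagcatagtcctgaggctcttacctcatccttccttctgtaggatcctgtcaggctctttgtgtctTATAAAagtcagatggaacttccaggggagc
Ccl8, chr11:82115085-82115184, plus strand: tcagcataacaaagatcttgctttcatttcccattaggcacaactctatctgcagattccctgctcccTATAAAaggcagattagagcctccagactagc
Ccl9, chr11:83578637-83578736, minus strand: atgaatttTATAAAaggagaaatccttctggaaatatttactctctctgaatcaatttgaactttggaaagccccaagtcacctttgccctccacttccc
The run began 31 bases before the start in Ccl12, 32 bases in Ccl8 and 92 bases in Ccl9. The T-box core AGGTGT was in none of the 5 promoters and in 11.8% of all promoters. The AP-1 motif TGANTCA and the NF-kB motif were found in 1 of the 5, Ccl9 in each case, and in 6.75% and 7.25% of all promoters. These matches describe letters in a window and were not tested for binding.

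The libraries held 16056282 to 19880654 deposited counts each. Tbx20 had 0 to 2 counts in knockout mice and 0 to 3 in control mice, too few to check the genotype labels. Among the markers, Krt14 of keratinocytes, Dcn of fibroblasts, Fabp4 of adipocytes, Acta1 of skeletal muscle and Pecam1 of endothelium were the highest of their lists by mean FPKM over the 8 mice. In knockout mice alone Krt10 was above Krt14, and in controls alone Mylpf was above Acta1. TBX20fl/fl replicate 2 stood apart from the rest. Its median Spearman correlation with the other libraries over genes was 0.919, against 0.974 to 0.990 in the others. Its log2 CPM (counts scaled to the library total times the TMM factor, edgeR's normalization factor) was compared with the median of the other mice. The difference had a median of 1.09 over genes in the quintile of shortest transcripts and -1.13 over genes in the quintile of longest ones. The TMM factor was 0.735 in this library, which raises its log2 CPM, and 1.01 to 1.07 in the others. Since 9 of the 10 chemokine genes fell into the shortest quintile, the fold changes, sums and correlations of the 10 genes are given below with and without this library, and their fold changes and correlations also after removing from every library its length trend, a smooth curve of its deviation against transcript length.

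All 10 genes had lower mean FPKM (fragments scaled to transcript length and library total, a per-length level) in knockout mice, by 1.61-fold (Ccl11) to 2.93-fold (Ccl4). The sum of the 10 was 997.2 ± 179 FPKM (SD, n = 4) in knockout mice and 1926 ± 795 in control mice. The lowest control sum, 1304, was above the highest sum of the other group, 1207. Among single genes, 1.92% had every knockout mouse below every control, and 4.89% in the shortest quintile of transcripts did. Without TBX20fl/fl replicate 2 the control sum was 1549.98 ± 315 FPKM (SD, n = 3), and the means of the 10 genes differed by 1.32-fold (Ccl11) to 2.23-fold (Ccl3). As a share of all counts the 10 genes took 0.105% ± 0.0179 and 0.196% ± 0.0729. The FPKM of all genes added up to 521852 to 575080 in knockout mice and 547763 to 772536 in controls, highest in TBX20fl/fl replicate 2. As a share of that total the 10 genes took 0.185% ± 0.0351 and 0.301% ± 0.0707, or 1.63-fold, against 1.93-fold for their sums. None passed an adjusted p of 0.05 in the fit over all genes with edgeR's quasi-likelihood test, where the adjusted p was 0.498 for each.

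**Figure D1:**
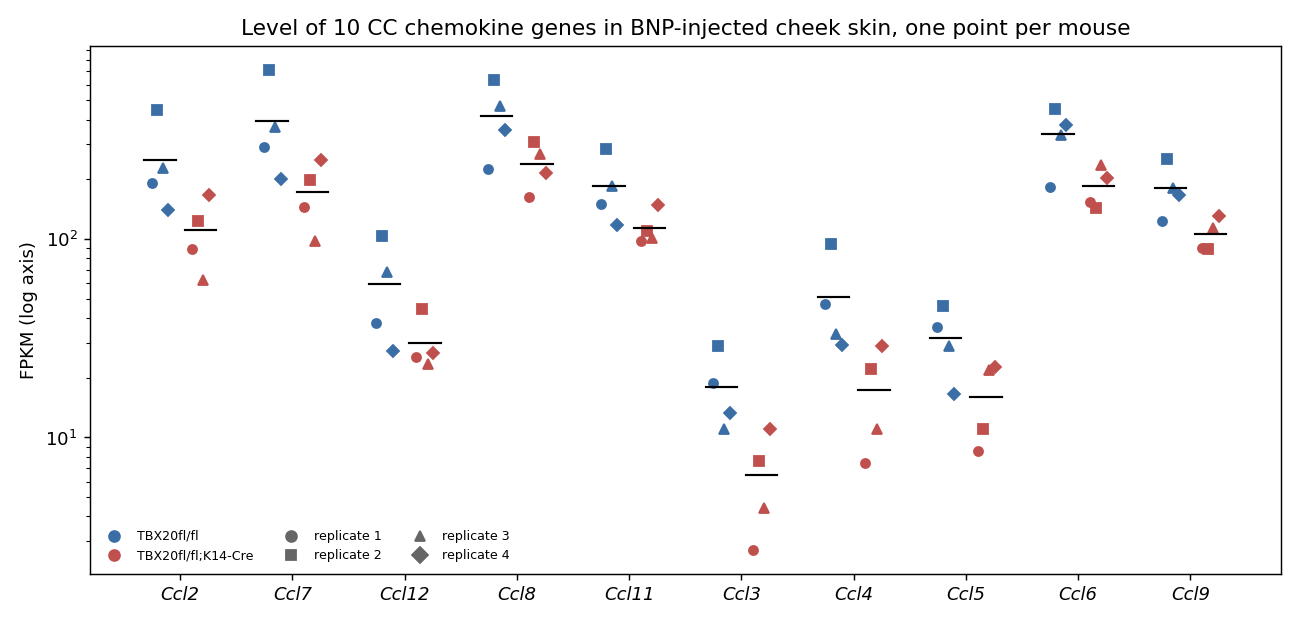
FPKM (log axis) of the 10 chemokine genes, one point per mouse, with TBX20fl/fl in blue, TBX20fl/fl;K14-Cre in red, the marker shape giving the replicate number and the black line the group mean. Ccl4 is the only gene whose groups do not overlap, and TBX20fl/fl replicate 2 is the highest point of every gene.

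The Ccr2 ligands Ccl2, Ccl7 and Ccl12 are the main attractants of inflammatory monocytes. Ccl2 measured 89.6, 123, 62.1 and 167 FPKM in knockout replicates 1 to 4, and 191, 447, 227 and 139.9 in TBX20fl/fl replicates 1 to 4. Replicate 4 of the first group, at 167, was above control replicate 4 and below the other controls. Means were 111 ± 45.4 and 251 ± 136, and the log2 fold change in edgeR was -1.47 (SE 0.49, unadjusted p = 0.0142). The exact permutation test of the means gave p = 0.0571. Ccl7 measured 145, 198, 97.8 and 249.6 FPKM in knockout mice and 291, 712, 367 and 200.2 in controls. The same mouse, replicate 4, was the one above the lowest control. The log2 fold change of Ccl7 was -1.47 (SE 0.50, unadjusted edgeR p = 0.0157, exact permutation p = 0.0571). Ccl12 was lower in level than Ccl2 and Ccl7, with 25.6, 44.4, 23.5 and 26.8 FPKM in knockout mice and 37.9, 104, 68.4 and 27.1 in controls. Replicate 2 of the first group, at 44.4, exceeded control replicates 1 and 4. Its log2 fold change was -1.26 (SE 0.49, unadjusted edgeR p = 0.0293), and its exact permutation p, 0.171, was the highest of the 10.

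Ccl8 had the highest mean of the 10 genes in both groups. It measured 163, 309.6, 268 and 216 FPKM in knockout mice and 225, 631, 467 and 353 in controls. Replicates 2 and 3 of the first group were above control replicate 1 and below the other controls. The log2 fold change was -1.06 (SE 0.39, unadjusted edgeR p = 0.0233, exact permutation p = 0.0857). The eosinophil attractant Ccl11 measured 97.5, 109.7, 101 and 149 FPKM in knockout mice and 150.2, 284, 185 and 118 in controls. Only replicate 4, at 149, lay within the control range. Ccl11 had the smallest fold change of the 10 with all mice and no length correction, -0.94 on the log2 scale (SE 0.36, unadjusted edgeR p = 0.0270, exact permutation p = 0.0571). The smallest with the length trend removed was that of Ccl8, -0.31 against -0.40 for Ccl11.

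Ccl3 and Ccl4, also known as MIP-1α and MIP-1β, are made by activated macrophages, mast cells and neutrophils, and they had the largest fold changes with all mice and no length correction. Ccl3 measured 2.72, 7.65, 4.39 and 11.04 FPKM in knockout mice and 18.8, 28.95, 11.02 and 13.3 in controls. The groups touched at replicate 4 of the first and replicate 3 of the second, at 11.04 and 11.02 FPKM. The log2 fold change was -1.73 (SE 0.51, unadjusted edgeR p = 0.00738, exact permutation p = 0.0571). Ccl4 measured 7.48, 22.0, 10.98 and 29.06 FPKM in knockout mice and 46.9, 94.2, 33.1 and 29.41 in controls. It was the only gene of the 10 without overlap, and the gap lay between 29.06 and 29.41. Of the 15969 genes whose mean FPKM reached 0.1, 1.92% had every knockout mouse below every control, and among genes in the shortest quintile of transcripts 4.89% did. With the length trend removed the groups overlapped for all 10 genes, Ccl4 included, while 2.52% of all genes tested had no overlap in that direction on the log2 CPM scale. The log2 fold change of Ccl4 was -1.85 (SE 0.57, unadjusted edgeR p = 0.00934), and its exact permutation p of 0.0286 is the smallest that 4 mice against 4 can give.

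Ccl5 (RANTES), known from T cells, NK cells and platelets, measured 8.59, 11, 22.0 and 22.7 FPKM in knockout mice and 35.9, 45.9, 29.1 and 16.65 in controls. Replicates 3 and 4 of the first group were above control replicate 4. The log2 fold change was -1.23 (SE 0.44, unadjusted edgeR p = 0.0211, exact permutation p = 0.0857). Ccl6 and Ccl9 are rodent Ccr1 ligands made by myeloid cells. Ccl6 measured 154, 144, 236 and 204 FPKM in knockout mice and 184, 454, 336 and 377 in controls, and replicates 3 and 4 of the first group were above control replicate 1. Its log2 fold change was -1.10 (SE 0.35, unadjusted edgeR p = 0.0108, exact permutation p = 0.0857). Ccl9 measured 89.8, 88.95, 114 and 131 FPKM in knockout mice and 124, 254, 181 and 167 in controls, with replicate 4 of the first group above control replicate 1. Its log2 fold change was -1.01 (SE 0.32, unadjusted edgeR p = 0.0109, exact permutation p = 0.0571).

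The 10 genes were thus lower with an unadjusted edgeR p under 0.05 in 10 of 10 cases, against 5.91% of the 17124 genes tested, and 2.45% of genes were higher at that p. In the shortest quintile of transcripts, where 9 of them lie, 15.6% of genes were lower at that p. No gene of the table passed the adjusted threshold in edgeR, where 1431 genes had an unadjusted p under 0.05. DESeq2 called 10 genes and none of these chemokines, whose adjusted DESeq2 p ran from 0.114 (Ccl3) to 0.353 (Ccl11). With limma on log2(FPKM + 1), 9 of the 10 were lower at an unadjusted p under 0.05, against 3.39% of the 15969 genes tested, and the adjusted p was 0.457 for all 10.

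**Figure D2:**
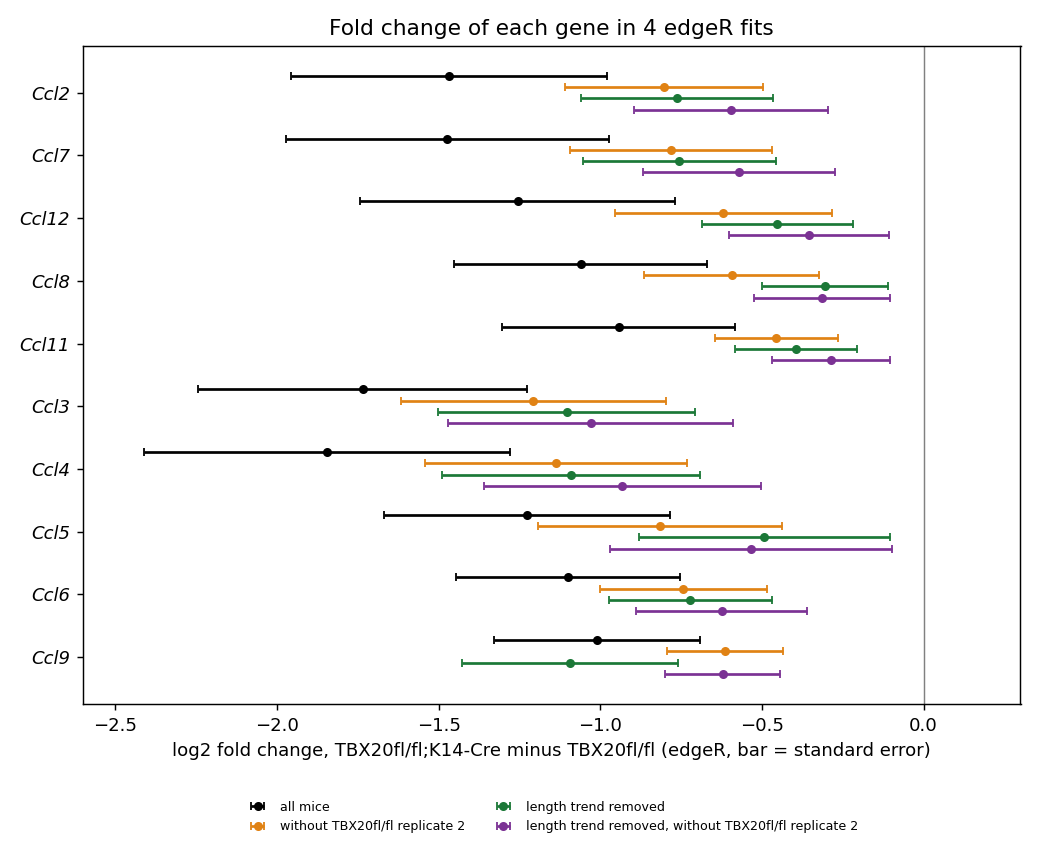
Log2 fold change of each gene (TBX20fl/fl;K14-Cre minus TBX20fl/fl, edgeR, bars are the standard error) in 4 fits, with all mice in black, without TBX20fl/fl replicate 2 in orange, with the length trend removed in green and with both in purple. All estimates are below 0, and those with all mice and no length correction are the farthest from 0 in every gene except Ccl9.

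Without TBX20fl/fl replicate 2 the exact permutation p of the means ran from 0.0571 (Ccl4, the only gene without overlap there too) to 0.286 (Ccl12), over 35 assignments of 4 mice and 3. In that comparison 2.57% of all genes had every knockout mouse below every control. The median log2 fold change of the 10 genes moved from -1.24 to -0.76 without that mouse, and 7 of them had an unadjusted edgeR p under 0.05, against 4.5% of all genes. Ccl5 (-0.81, SE 0.38), Ccl8 (-0.59, SE 0.27) and Ccl12 (-0.62, SE 0.33) were the ones that did not. With the length trend removed from every library the median was -0.74, and 6 genes were lower at that p, against 5.19% of all genes. Those 6 were Ccl2 (-0.76), Ccl3 (-1.10), Ccl4 (-1.09), Ccl6 (-0.72), Ccl7 (-0.75) and Ccl9 (-1.09). The estimates of the other 4 were -0.49 for Ccl5, -0.31 for Ccl8, -0.40 for Ccl11 and -0.45 for Ccl12. With both changes, an alternative chosen after seeing the data, the median was -0.58, and Ccl3 (-1.03), Ccl6 (-0.62) and Ccl9 (-0.62) had an unadjusted edgeR p under 0.05, against 3.75% of all genes. With the replicate number of the labels as a block 8 were lower at that p, against 6.54% of all genes, and with the block and the length correction 7 were, against 6.49%. The direction was lower in knockout mice for every one of the 10 genes in each of these fits.

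Leaving out other mice changed the number of the 10 genes without overlap in FPKM, and with it the share of all genes with every knockout mouse below every control. Without knockout replicates 1 and 3 it was 1 gene each, against 2.98% and 2.47% of all genes. Without knockout replicate 2 it was 2 genes, against 6.08%, and without replicate 4 it was 6, against 3.49%. Knockout replicate 4 was the mouse that lay above the lowest control for Ccl2, Ccl3, Ccl7, Ccl9 and Ccl11, and the only one of its group to do so for each. Without TBX20fl/fl replicates 1, 3 and 4 the numbers were 4, 2 and 5 genes, against 5.21%, 2.34% and 4.23%. Without knockout replicate 1, 6 of the 10 were lower at an unadjusted edgeR p under 0.05, against 3.15% of all genes.

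**Figure D3:**
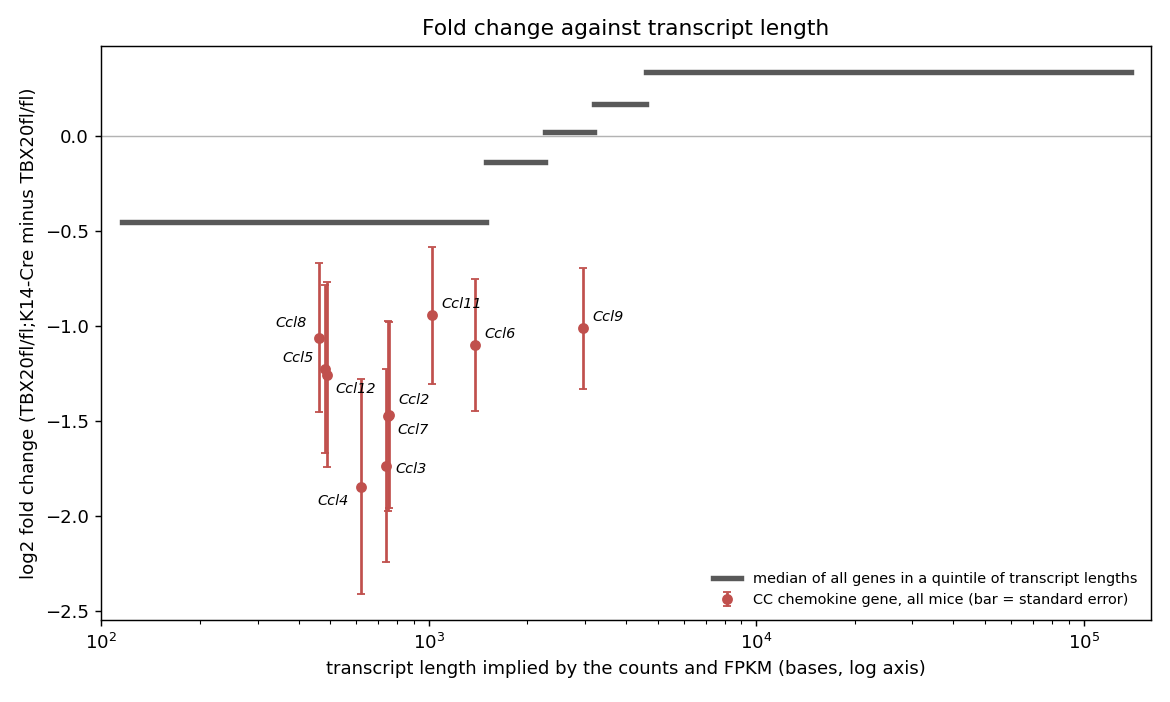
Log2 fold change (TBX20fl/fl;K14-Cre minus TBX20fl/fl, edgeR, bars are the standard error) of the 10 genes against transcript length in bases (log axis), with the median of all genes in each quintile of transcript lengths as grey bars. The grey bars climb from -0.45 in the shortest quintile to 0.34 in the longest, and all 10 chemokine genes lie below the bar of their own quintile.

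Transcript length moved with fold change across the whole table. The median log2 fold change was -0.45 in the shortest quintile of genes and 0.34 in the longest. The chemokine genes ran from 462 bases (Ccl8) to 2959 bases (Ccl9), and Ccl9 alone lay outside the shortest quintile. Its quintile had a median of 0.02, and the log2 fold change of Ccl9 was -1.01 before and -1.09 after removal of the trend. Without TBX20fl/fl replicate 2 the estimate of Ccl9 was -0.62 both with and without that removal. In TBX20fl/fl replicate 2 the median of the 10 genes was 1.85 above the median of the other mice on the log2 CPM scale, and in the same library the shortest quintile of genes stood 1.09 above it. In TBX20fl/fl replicate 3 the shortest and longest quintiles stood at 0.24 and -0.22. In knockout replicates 1, 3 and 4 they stood at -0.19 to -0.11 and 0.07 to 0.13. The remaining libraries lay from -0.035 to 0.032 in both. Leaving out TBX20fl/fl replicate 2 alone does not remove these smaller shifts. The part of transcript length in the lower chemokine values was not tested beyond these fits.

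By mean FPKM the order in controls was Ccl8, Ccl7, Ccl6, Ccl2, Ccl11, Ccl9, Ccl12, Ccl4, Ccl5 and Ccl3. In knockout mice it was Ccl8, Ccl6, Ccl7, Ccl11, Ccl2, Ccl9, Ccl12, Ccl4, Ccl5 and Ccl3. Without TBX20fl/fl replicate 2 the control means put Ccl6 (299 FPKM) above Ccl7 (286) and Ccl9 (157) above Ccl11 (151). Neighbours in the control and knockout orders with all mice overlapped in range except Ccl9 and Ccl12. The lowest Ccl9 value was 124 FPKM against a highest Ccl12 value of 104 in controls, and 88.95 against 44.4 in the other group. The 10 genes thus fell into 6 with group means of 106 FPKM or more and 4 with group means of 59.3 FPKM or less in both genotypes. Within this order Ccl3, the lowest, had 39 to 344 counts per library and Ccl9 had 5120 to 12083, so counting error weighs more on Ccl3 than on the others.

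The genes also differed in how they varied from mouse to mouse. Ccl7 and Ccl2 kept a nearly fixed ratio, with 1.43 to 1.62 FPKM of Ccl7 for each FPKM of Ccl2 in the 8 mice. The coefficient of variation of that ratio was 4.43%, the lowest of the 45 pairs, whose median was 43.5%. Ccl4 and Ccl3 came next with ratios of 2.20 to 3.26 (12.2%), then Ccl9 and Ccl6 with 0.442 to 0.674 (13.9%). The least constant pair was Ccl6 and Ccl4, with 3.91 to 21.5 FPKM of Ccl6 for each FPKM of Ccl4 (63.0%). In order of position the genes form 8 pairs of neighbours within the 2 blocks. The coefficients of variation of these 8 ran from 4.43% to 60.4%, with a median of 27.1%. They include the 3 most constant pairs and, with Ccl6 and Ccl3, the pair ranked 44 of 45.

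**Figure D4:**
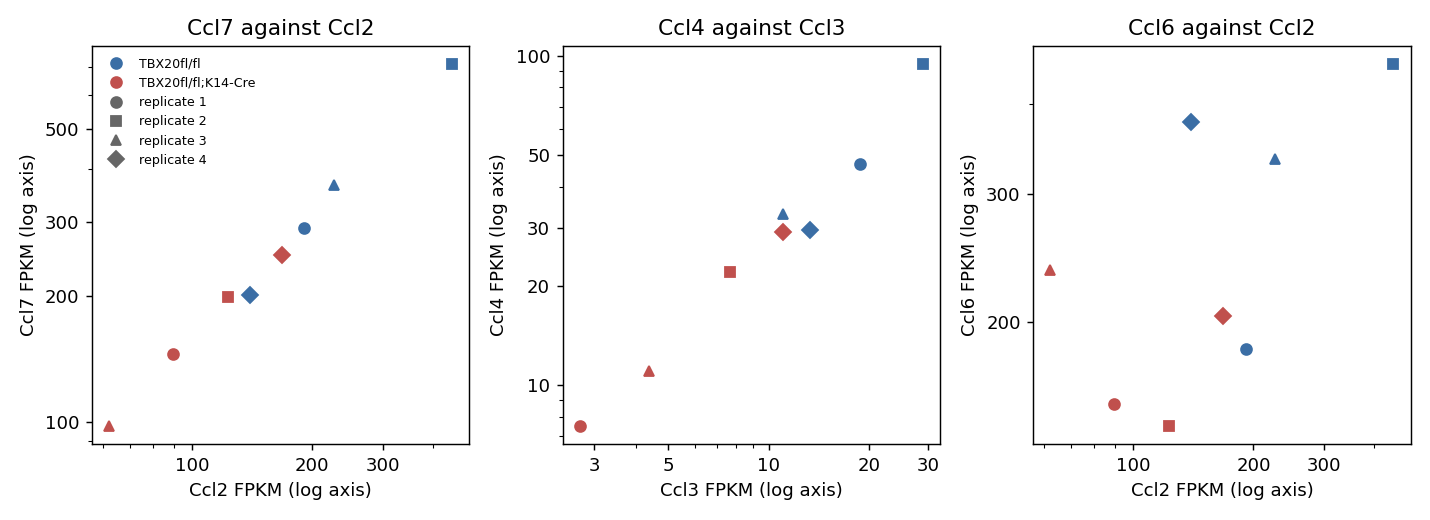
FPKM of Ccl7 against Ccl2, Ccl4 against Ccl3, and Ccl6 against Ccl2 (all axes logarithmic), one point per mouse, with TBX20fl/fl in blue, TBX20fl/fl;K14-Cre in red and the marker shape giving the replicate number. The points of the first and second plot lie along a line, while in the third knockout replicate 3 has the lowest Ccl2 (62.1) with a Ccl6 level of 236, the highest of its group.

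Ccl2 and Ccl6 did not follow each other in this way. In knockout replicate 3 Ccl2 and Ccl7 were the lowest of all mice, whereas Ccl6 was the highest of its group. In TBX20fl/fl replicate 4 Ccl2, Ccl7, Ccl11, Ccl12, Ccl4 and Ccl5 were the lowest of the controls, while Ccl6, at 377 FPKM, was second only to replicate 2. Ccl8, Ccl6 and Ccl9 together made up 40.8% to 65.8% of the summed FPKM of the 10 genes, lowest in TBX20fl/fl replicate 1 and highest in knockout replicate 3.

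**Figure D5:**
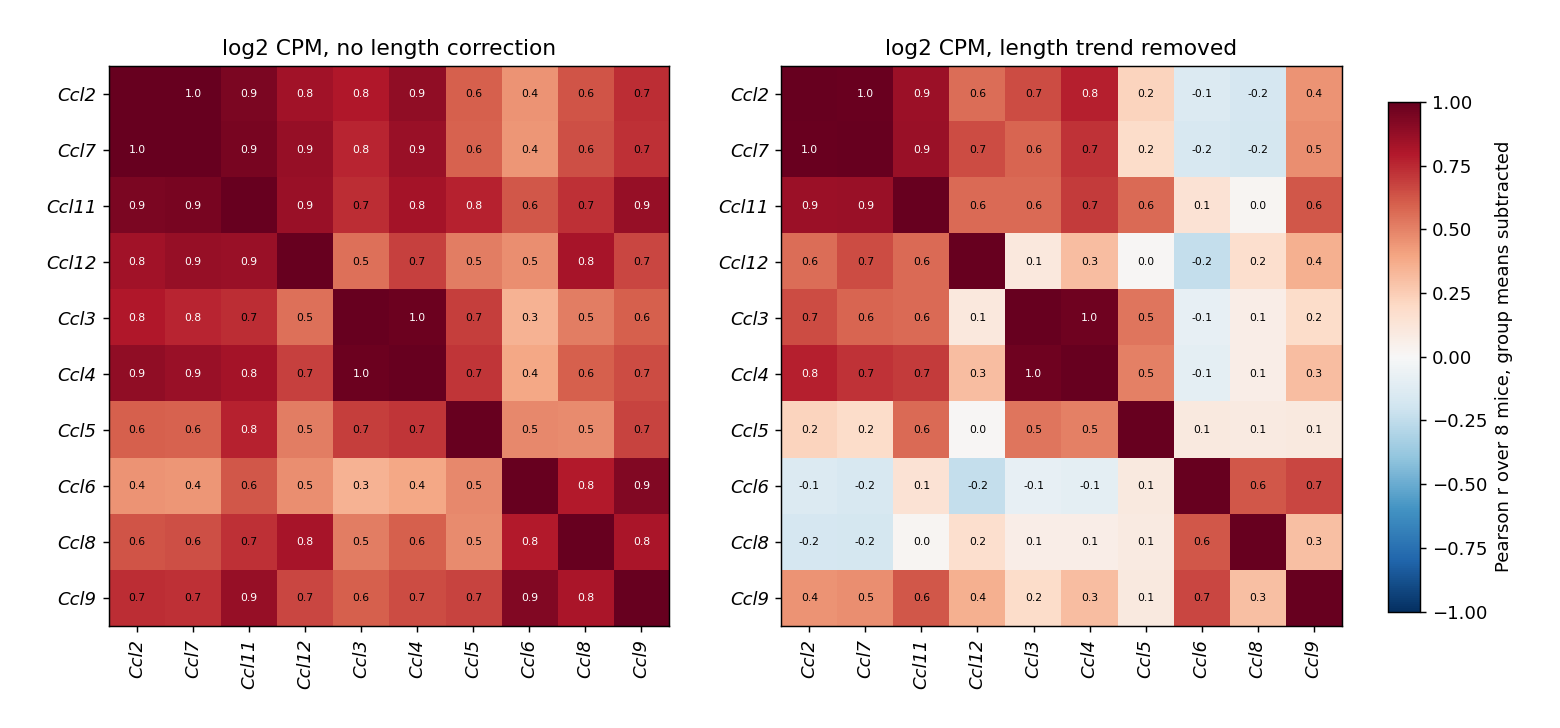
Pearson r between the log2 CPM of each pair of genes over 8 mice with group means subtracted, without (left) and with (right) removal of each library's length trend, with the colour scale running from -1 to 1. On the right the darkest pairs are Ccl2 with Ccl7 (0.991) and Ccl3 with Ccl4 (0.974), and Ccl6 and Ccl8 turn pale or blue against Ccl2 and Ccl7.

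With group means subtracted, the Pearson r of log2 CPM over the 8 mice was 0.997 for Ccl2 and Ccl7, 0.983 for Ccl3 and Ccl4, 0.925 for Ccl6 and Ccl9 and 0.942 for Ccl2 and Ccl11. Over the 45 pairs it ran from 0.345 to 0.997 with a median of 0.711. The points share libraries, depth and the length trend, and TBX20fl/fl replicate 2 is the highest in each gene. After removal of the length trend the median over pairs was 0.312. Ccl2 and Ccl7 then stood at 0.991, Ccl3 and Ccl4 at 0.974 and Ccl2 and Ccl11 at 0.859. Ccl2 and Ccl4 moved from 0.884 to 0.779, Ccl6 and Ccl9 from 0.925 to 0.664, Ccl2 and Ccl8 from 0.631 to -0.171, and Ccl2 and Ccl6 from 0.448 to -0.134. Without TBX20fl/fl replicate 2 and with no length correction, over 7 mice, the median over pairs was 0.280. There Ccl2 and Ccl7 stood at 0.991, Ccl3 and Ccl4 at 0.977, Ccl6 and Ccl9 at 0.868, Ccl2 and Ccl11 at 0.841, and Ccl2 and Ccl6 at -0.289. Ccl2 and Ccl8 stood at 0.0565. The values of Ccl2 with Ccl6 and Ccl8 were thus near or below 0 without that library. Over the 8 pairs of neighbours r ran from 0.345 (Ccl6 and Ccl3, the lowest of the 45 pairs) to 0.997 with all mice, from -0.08 to 0.991 with the length trend removed, and from -0.22 to 0.991 without TBX20fl/fl replicate 2. Ccl5 and Ccl9 stood at 0.679, 0.0984 and 0.368 in these, and Ccl12 and Ccl8 at 0.825, 0.167 and 0.558. Neighbours on the chromosome therefore took both high and low values.

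Outside the 10, the genes whose pattern over the mice was most like their mean profile were Ifi204 (r = 0.993), Htra2 (0.992), Mesd (0.991), 5430427O19Rik (0.989), Gm6377 (0.989) and Cnot8 (0.987). This r was taken over 8 mice with group means subtracted, among 13288 genes whose mean count reached 50. The largest of so many values over so few mice can be high by chance, and this was not tested. With the length trend removed the same 6 genes had r of 0.668 to 0.890. Without TBX20fl/fl replicate 2 they had r of 0.954 to 0.989 over 7 mice, which were among the 8 used to pick them. The list itself changed with the trend removed, when the 6 most alike were Zfp637 (0.985), Trim30a (0.977), Ifi206 (0.976), Ifi207 (0.976), Slfn2 (0.974) and Mlkl (0.974), of which 0 were among the first 6.

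Receptors of these chemokines were measured in the same skin. Of 6 receptor genes, 2 were lower at an unadjusted edgeR p under 0.05 (5.91% of all genes were), none was higher, and none passed the adjusted threshold (adjusted p of 0.498 or more). These were Ccr1 and the monocyte receptor Ccr2. Ccr1 had 7.12 to 12.6 FPKM in knockout mice and 11.4 to 27.3 in controls and a log2 fold change of -1.26 (SE 0.35). Ccr2 had 33.3 to 49.3 and 35.5 to 70.5 FPKM and a log2 fold change of -0.65 (SE 0.25). Ccr3, the eosinophil receptor, had 2.34 to 4.33 and 3.37 to 5.99 FPKM and a log2 fold change of -0.68 (SE 0.31). Ackr1, a chemokine-binding receptor of venules that does not signal through G proteins, had 5.48 to 10.0 and 7.70 to 9.77 FPKM and a log2 fold change of -0.50 (SE 0.26). The ranges of the genotypes overlapped for all 4 receptors. With the length trend removed 3 of the 6 receptors were lower at an unadjusted edgeR p under 0.05 (5.19% of all genes), and Ccr3 was then among them. Without TBX20fl/fl replicate 2 it was 1 of the 6, Ccr1 (-0.96, SE 0.30), against 4.5% of all genes.

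Of 11 other CC chemokine genes tested, 5 were lower at an unadjusted edgeR p under 0.05, against 5.91% of all genes and 15.6% of the shortest quintile. It was 1 of 11 with the length trend removed, against 5.19%, and 4 of 11 without TBX20fl/fl replicate 2, against 4.5%. The 4 with the smallest p were Ccl19 (-0.89, SE 0.29), which guides T cells and dendritic cells, Ccl20 (-1.14, SE 0.40), the Ccr6 ligand, the keratinocyte chemokine gene copy Ccl27b (-0.67, SE 0.23), and Ccl21a (-0.90, SE 0.32) of lymphatic endothelium. Ccl27b and Ccl21a belong to families of near-identical copies, between which reads can be split. Their log2 fold changes with the length trend removed were -0.36 for Ccl19, -0.53 for Ccl20, -0.03 for Ccl27b and -0.32 for Ccl21a. Ccl21a was the one still lower at an unadjusted edgeR p under 0.05. Without TBX20fl/fl replicate 2 and with no length correction they were -0.62 for Ccl19, -0.70 for Ccl20, -0.42 for Ccl27b and -0.48 for Ccl21a. Ccl1, a T cell chemokine named here after its values were seen because it is the next gene after Ccl8 in the table, had 2 to 9 counts per library. Its FPKM was 0.22 to 0.78 in knockout mice and 0.22 to 1.04 in controls, with a log2 fold change of -0.49 (SE 0.59), and 0.11 with the length trend removed.

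Of 8 cytokine genes known to induce these chemokines, 5 were lower at an unadjusted edgeR p under 0.05 (5.91% of all genes), and 4 were with the length trend removed (5.19%). Il1a had 13.1 to 16.1 FPKM in knockout mice and 18.9 to 26.5 in controls, ranges that did not overlap, as in 1.92% of all genes (log2 fold change -0.81, SE 0.22). Il1b had 12.9 to 58.6 and 57.1 to 198 FPKM and a log2 fold change of -2.06 (SE 0.56). Tnf was at -1.29 (SE 0.39) and Il6 at -2.01 (SE 0.64). With the length trend removed the log2 fold changes were -0.64 for Il1a, -1.60 for Il1b, -1.04 for Tnf and -1.36 for Il6. TBX20fl/fl replicate 2 had the highest Il6 value, 20.96 FPKM against 3.64 to 7.39 in the other controls. Without that mouse the log2 fold changes were -0.55 for Il1a, -1.43 for Il1b, -1.08 for Tnf and -1.05 for Il6, and 4 of the 8 genes were lower at an unadjusted edgeR p under 0.05 (4.5%). None passed the adjusted threshold in any of these fits.

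Markers of leukocytes that make these chemokines or respond to them were measured in the same mice. Of 10 monocyte and macrophage markers 4 were lower at an unadjusted edgeR p under 0.05 (5.91% of all genes) with a list median of -0.08, and their summed FPKM was 947 to 1439 in knockout mice and 1151 to 2255 in controls, mostly Lyz2. Of 8 neutrophil markers 5 were lower, led in level by S100a9, with sums of 111 to 301 and 294 to 979 FPKM. Of 7 mast cell and basophil markers 5 were lower, led in level by Mcpt4 in knockout mice and Cpa3 in controls. Their sums were 481 to 539 and 589 to 887 FPKM and did not overlap. Among single genes, 1.92% had every knockout mouse below every control. Of 8 T and NK cell markers 3 were lower, led in level by Cd3g, with sums of 25.3 to 35.6 and 24.9 to 57.4 FPKM. Of the eosinophil markers 2 of 6 tested were lower, with sums of 171 to 248 and 173 to 554 FPKM led by Ear1 in knockout mice and Ear2 in controls. Nearly all of these sums came from Ear1, Ear2 and Ear6, while Siglecf, Prg2 and Il5ra had 0.33 to 3.16 FPKM across the mice. The highest control sums without TBX20fl/fl replicate 2 were 1709 FPKM for monocytes and macrophages, 979 for neutrophils, 658 for mast cells and basophils, 44.1 for T and NK cells and 327 for eosinophils, and the lowest were as before. The eosinophil granule gene Epx had at most 1 count in any library. None of 7 keratinocyte, 6 fibroblast, 5 endothelial, 6 skeletal muscle and 5 adipocyte markers was lower at that p, and 2 fibroblast markers were higher, by edgeR. With the length trend removed (5.19% of all genes lower) the counts were 3 for monocytes and macrophages, 6 for neutrophils, 5 for mast cells and basophils, 2 for T and NK cells and 0 for eosinophils. Without TBX20fl/fl replicate 2 (4.5%) they were 3, 6, 5, 2 and 0. No keratinocyte, fibroblast, endothelial, skeletal muscle or adipocyte marker was lower in either fit. With the trend removed 1 fibroblast and 1 adipocyte marker were higher, and without that mouse 2 fibroblast markers were. The part of these cells in the chemokine values was not tested.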

How the data were processed

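RNA from BNP-injected cheek skin of 8 mice was sequenced for the authors by BGI from poly(A)-selected libraries with single-end reads and aligned with HISAT. The authors deposited expected counts per gene, estimated from the aligned reads and not normalized, and FPKM values, which are scaled to transcript length and library total. The authors also deposited TPM values and a size-factor normalized count signal. These, 40 columns of group means and 51 columns of the authors' own comparisons (fold changes, p-values and q-values) were not used. The program that made the counts and its strand setting were not given in the sources used here.

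Rounded counts (16056282 to 19880654 per library) were filtered to the 17124 genes whose sum over all libraries reached 10, and genotypes were compared with edgeR 4.0.16 (TMM, quasi-likelihood, R 4.3.3), with Benjamini-Hochberg adjustment over all genes and a threshold of 0.05. FPKM was compared with limma 3.58.1 on log2(FPKM + 1) at a mean FPKM of at least 0.1, which understates the change of low genes, and per gene by exact permutation of the means, two-sided, over all 70 assignments (Python 3.11.15, numpy 2.4.6, pandas 2.3.3). DESeq2 1.42.0 was an alternative. The length trend is a lowess curve (span 0.3) of each library's deviation in log2 CPM against log2 transcript length, used as an offset. This log2 CPM was scaled with the TMM factors (prior count 2). At the library totals without these factors 3 counts equal 0.151 to 0.187 CPM, for counting error only. The scripts were tested on simulated data.

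The 10 genes and the gene lists were chosen with earlier results of these data known. Named besides the 10 were up to 4 genes with the smallest edgeR p of each list of receptors, chemokines and cytokines. The highest gene of each marker list was named over all mice and, added after the values were seen, in each group. Ccl1 and the remaining eosinophil markers were also named after the values were seen. The 6 genes most like the 10 in pattern were named both without and with removal of the length trend. Labels number the mice 1 to 4 in each group without stating a shared litter or batch, so p-values measure the spread between these mice. Deviations of same-numbered mice from their group means correlated at 0.160 to 0.405 over 13298 genes, and those of differently numbered mice of the other group at -0.518 to 0.426. All 4 same-numbered pairs were above 0.1, so the replicate number was also fitted as a block. A receptor gene and 1 coding stretch are not reported here.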

Additional observations from a re-analysis of the deposited data

Results flagged for a closer look

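In TBX20fl/fl;K14-Cre replicate 2, Ccl12 measured 44.4 FPKM, far from the 23.5 to 26.8 FPKM of the other mice of its group. Its distance to the nearest of them, relative to the whole range of the group, was above the 95% critical value of Dixon's test for 4 samples. This was 1 of 20 groups examined (10 genes in each genotype), and chance alone gives such a mouse in about 5% of groups.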

How the results depend on the processing

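The log2 fold change of each of the 10 genes was below 0 in all 18 edgeR and DESeq2 fits, from -2.21 to -0.29. The median of the 10 was -1.24 with TMM, -1.27 with DESeq2 size factors, -0.98 with no scaling beyond the total count, which shifted the median of all genes from 0.03 to 0.17, and -1.499 to -0.76 when each mouse was left out in turn. Blocking on replicate number gave a median of -1.10 and 8 of the 10 had an unadjusted edgeR p under 0.05, against 6.54% of all genes (adjusted p 0.405 for each). With the block and the length trend together it was -0.75, and 7 did, against 6.49%. The block changed no call. The number of the 10 with an unadjusted edgeR p under 0.05 was 6 with the length trend removed (5.19% of all genes), 3 with that and without TBX20fl/fl replicate 2 (3.75%), and 6 without TBX20fl/fl;K14-Cre replicate 1 (3.15%). Genes called over the table were 0 in every edgeR and limma fit and 10 with DESeq2. Genes of the 10 without overlap in FPKM were 1, 0 with the length trend removed, and 1 to 6 when each mouse was left out, while the share of all genes without overlap in that direction rose from 1.92% to between 2.34% and 6.08%. The number was 2 without TBX20fl/fl;K14-Cre replicate 2 (6.08%), 6 without its replicate 4 (3.49%), and 4, 2 and 5 without TBX20fl/fl replicates 1, 3 and 4 (5.21%, 2.34% and 4.23%). The cause of these differences was not tested. Groups of 4 mice limit every test here, and 1 library carries much of the control mean.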
